A study of Mus musculus with 27 samples.

Results

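Lung fibroblasts that had spent 15 d with the ATM inhibitor KU60019 were compared with fibroblasts given the same 15 d of inhibitor and then 20 d without it. The libraries were chosen by title: S10, S11 and S12 ("-KU 20d (15)") against S4, S5 and S6 ("+KU 15d"), 6 of the 27 RNA-seq libraries of the series, over all expressed genes. All libraries came from primary fibroblasts grown out of the lungs of wild-type C57BL/6 mice and kept in serum-containing medium at low oxygen, and KU60019 was given at 3 uM. The withdrawn cells were harvested 20 d later than the cells still under KU60019, so withdrawal and further culture go together in this comparison. To set them beside other cells, 3 more groups of 3 libraries were used: DMSO vehicle for 15 d (S1 to S3), DMSO for 15 d and then 20 d without it (S7 to S9), and KU60019 kept on for 35 d (S16 to S18), which had as many days in culture as the withdrawn cells. Each library title carries 1 of 3 numbers that recur in every group. What these numbers stand for is not stated, and if they are not separate mice or cultures, the p-values describe technical spread alone.

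ATM is a protein kinase that is activated by DNA double-strand breaks and passes the signal on to p53 and the checkpoint kinases. p53 in turn raises Cdkn1a, which encodes the cell cycle inhibitor p21, and Mdm2, which encodes its own ubiquitin ligase. Fibroblasts of the lung make most of its collagen, elastic fibre and proteoglycan matrix, and when they turn senescent they stop dividing, raise cyclin-dependent kinase inhibitors and secrete cytokines, proteases and growth factor binding proteins. The libraries measure RNA only, not ATM activity or cell division.

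Depth was 31265114 to 41966587 counts per library before withdrawal and 22976382 to 33249336 after it. The 3 withdrawn libraries differed far more from each other than the 3 before withdrawal: the chi-square per gene between pairs was 62.2 to 243 against 7.18 to 29.7. S11 stood farthest out. On the first principal component of the 12 libraries with 15 d of treatment (43.7% of the variance) the withdrawn libraries scored 46.1 (S10), 132.4 (S11) and 85.1 (S12), and those before withdrawal between -6.5 and 6.8. For KU60019 withdrawal, the larger changes on leaving out S11 or another library are given beside the results. Counts of 1 or 2 list members moved by 1 in other such fits as well. List counts that involve DMSO removal or cells kept on KU60019 were not recounted with a library left out.

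**Figure D1:**
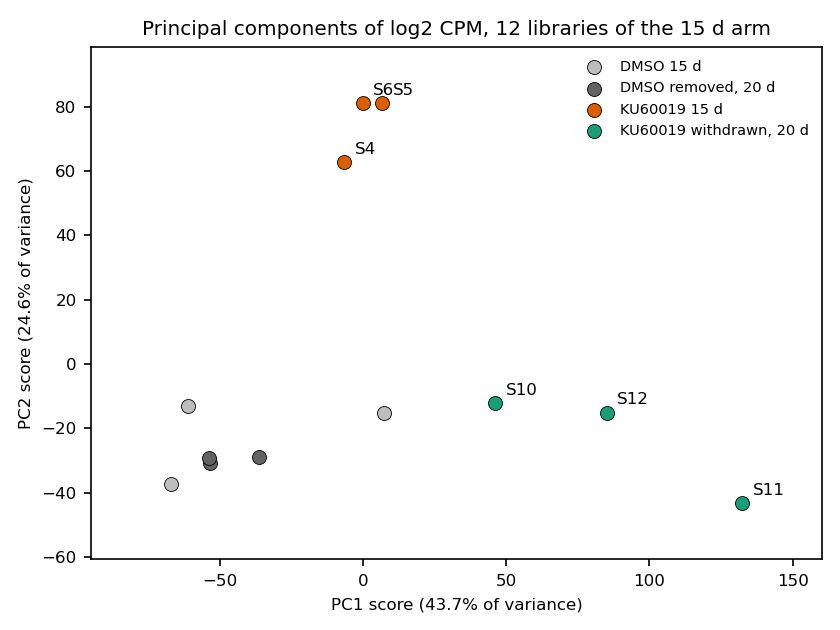
Scores of 12 libraries on the first and second principal components of log2 CPM, 1 point per library, coloured by group. S10, S11 and S12 lie apart from the other groups along the first component and are spread over it from 46.1 to 132.4, while S4, S5 and S6 separate along the second.

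The cells carried the RNA of fibroblasts at both times. Summed over 18 fibroblast genes the level was 14500 to 17400 CPM (counts scaled to a common library size with the TMM factor) before withdrawal and 27800 to 34500 CPM after it, against 38200 to 68100 CPM in the 6 DMSO libraries. Of 14 epithelial markers 12 were under 1 CPM in all 6 libraries, and of 14 macrophage and leukocyte markers 9 were. In RNA from whole cultures, fewer cells of a type and less RNA per cell cannot be told apart.

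Withdrawal was followed by a broad change. Of 18684 genes tested 7527 passed the threshold (edgeR, Benjamini-Hochberg adjusted p under 0.05), which is 40.3%. Of these, 3973 were higher after withdrawal (21.3% of genes tested) and 3554 lower (19%), and 2126 rises and 1650 falls were at least 2-fold. For 9721 genes (52.0%) the 3 withdrawn libraries did not overlap the other 3. Without S11, 5237 genes passed, 2815 of them higher. The split by direction depended on the scaling: rises were 52.8% of the genes called with TMM factors, 35.3% (2711 against 4967) with library size alone and 24.3% (1659 against 5169) with limma on log2(TPM + 1). The median log2 fold change over all genes was 0.02, -0.20 and -0.28 in these fits, and the values below are those with TMM factors.

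Removal of DMSO for the same 20 d moved 1312 genes (7.02%), 706 up and 606 down. A direct test of the difference between the responses to KU60019 withdrawal and DMSO removal passed for 4751 genes (25.4%), with the change after KU60019 the more positive for 2624 (14%) and the more negative for 2127 (11.4%). Withdrawn cells and cells kept on KU60019 to 35 d differed in 7133 genes (38.2%), 3755 of them higher in withdrawn cells. Among the libraries at DMSO 15 d, S2 stood apart on the first principal component, at 7.4 against -66.9 (S1) and -60.9 (S3). Without S2, 786 genes passed for DMSO removal and 3178 for the difference. Without S8 or S9, DMSO removal passed for 777 and 754. All these comparisons share libraries with the first, so their counts are not independent of it. Their split by direction also moved with the scaling: the more positive share of the differences was 55.2% with TMM factors and 33.3% on TPM, rises on DMSO removal were 53.8% and, with library size alone, 33.9%, and the higher share against 35 d of KU60019 was 52.6% and, on TPM, 36.6%.

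The levels of the called genes were set beside the range of the 6 DMSO libraries. Among the 3973 genes that rose, all 3 withdrawn libraries lay above the whole range of the 6 DMSO libraries for 1464 (36.8%, against 14.3% of all genes tested) and inside it for 444 (11.2%, against 12.3%). Before withdrawal, all 3 libraries had been below that range for 1616 of them (40.7%, against 17.8% of all genes) and inside it for 1427 (35.9%, against 34.4%). Among the 3554 genes that fell, all 3 withdrawn libraries lay below the DMSO range for 1402 (39.4%, against 15.6% of all genes) and inside it for 326 (9.17%, against 12.3%). All 3 libraries before withdrawal had been above that range for 1569 of them (44.1%, against 17.5% of all genes) and inside it for 1172 (33%, against 34.4%). Since genes were taken for being high or low in the withdrawn libraries, these shares are a description with no test.

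Of the genes of cyclin-dependent kinase inhibitors, Cdkn2a, Cdkn2b and Cdkn1c rose while Cdkn1a did not pass the test. Cdkn2a, which encodes p16 and p19ARF (chromosome 4, 89274471 to 89294653, minus strand, GRCm38), was at 29.7, 16.4 and 26.8 CPM in S4, S5 and S6 and at 112, 96.3 and 159 CPM in S10, S11 and S12. It rose by 2.33 ± 0.33 on the log2 scale (± SE, adjusted p = 1.31e-05), from 24.3 ± 6.96 to 122 ± 32.8 CPM (SD, n = 3). Counts were per gene, so the transcripts for p16 and p19ARF cannot be told apart. All 3 withdrawn libraries were above the DMSO libraries (23 to 41.8 CPM) and the libraries kept on KU60019 (51.2 to 54.9 CPM), and the rise exceeded that on DMSO removal by 1.79 (adjusted p = 0.0062).

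Cdkn1c, which encodes p57, rose from 0.345, 0.603 and 0.507 to 6.07, 12.8 and 10.0 CPM (log2 fold change 4.28 ± 0.34, adjusted p = 9.56e-09), again above every DMSO library (1.48 to 3.83 CPM). Cdkn2b, which encodes p15, rose from 25.1, 29.1 and 30.9 to 42.7, 67.0 and 61.3 CPM (1.01 ± 0.16). Cdkn1a stood at 459, 466 and 429 CPM before withdrawal and at 283, 493 and 340 CPM after it (-0.28 ± 0.18, adjusted p = 0.21). S11 was above all 3 libraries before withdrawal and the other withdrawn libraries below them, and without S11 the fall passed (-0.54, adjusted p = 0.0212). All of these levels except that of S10 were above the DMSO range of 145 to 312 CPM. Cdkn1a rose in DMSO cells over the same 20 d, and the difference between the responses was -1.10 (adjusted p = 0.0033).

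Among 18 cyclin-dependent kinase inhibitors and senescence regulators 8 rose and 3 fell, with a median log2 fold change of 0.24 against 0.02 over all genes. With library size alone the majority turned, to 4 rises and 5 falls, and on TPM it was 4 rises and 3 falls with a median of -0.12. Id1, an inhibitor of basic helix-loop-helix factors that BMP signals raise, rose from 38.3, 38.1 and 28.5 to 194, 265 and 149 CPM (2.53 ± 0.28). Mdm2 fell slightly, by 0.35 (± 0.13, adjusted p = 0.0318), from 122, 123 and 120 to 85.6, 104 and 96.7 CPM, and lost the call in 5 of the 6 fits that each left out 1 library (adjusted p up to 0.109). Mki67, a marker of dividing cells, stood at 16.5, 22 and 22.4 CPM before and 23.2, 29.4 and 26.5 CPM after withdrawal (0.38 ± 0.23, adjusted p = 0.206). Its level in cells kept on KU60019 was 8.99 to 13.7 CPM, and withdrawn cells exceeded that by 1.29 on the log2 scale (adjusted p = 0.00041). Lmnb1, of the nuclear lamina (-0.21, adjusted p = 0.345), the cytokine gene Il6 (-1.45, adjusted p = 0.0700) and Atm itself (-1.11 ± 0.45, adjusted p = 0.0548) did not pass.

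**Figure D2:**
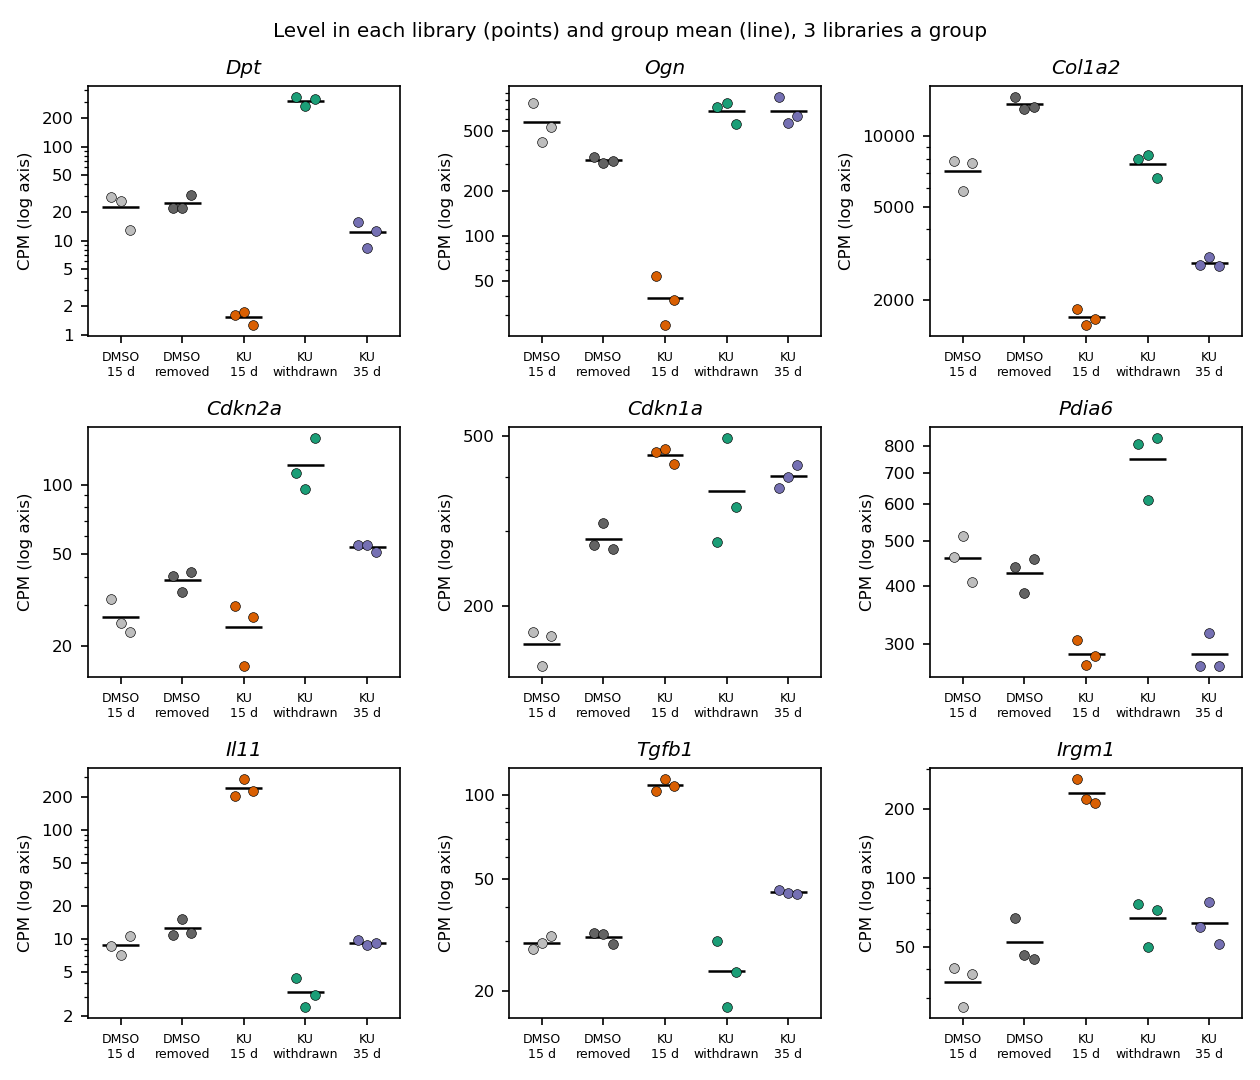
CPM (log axes) of 9 genes in each library of 5 groups; points are libraries and lines group means, n = 3. Dpt, Cdkn2a and Pdia6 were higher in all 3 withdrawn libraries than in every other library shown, Il11 was lower, and Cdkn1a overlapped between KU60019 at 15 d and withdrawal.

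The largest rises included those of Ptn, Cilp, Col8a2, Cxcl13, Dpt, Rspo2, Egfl6, Chodl, Ldb2, Clec3b and Comp, most of them genes of secreted or matrix proteins. Dpt encodes dermatopontin, a matrix protein that binds decorin (chromosome 1, 164796644 to 164824266, plus strand). Its level was 1.63, 1.74 and 1.27 CPM before and 333, 270 and 317 CPM after withdrawal (log2 fold change 7.63 ± 0.52, adjusted p = 2.12e-09). DMSO libraries held 13 to 30.4 CPM and libraries kept on KU60019 8.25 to 15.7 CPM, so the 3 withdrawn libraries were far above both. Ptn encodes the heparin-binding growth factor pleiotrophin (chromosome 6, 36714929 to 36810220, minus strand). It went from 0.470, 0.447 and 0.330 CPM to 40.0, 331 and 165 CPM (8.74 ± 0.66), with DMSO libraries at 5.6 to 17.3 CPM. Clec3b, which encodes the plasminogen-binding protein tetranectin, went from 2.19, 1.41 and 1.42 to 64.9, 265 and 231 CPM, against 6.08 to 58.6 CPM in DMSO cells.

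In 9 of these 11 genes S11 was the highest of the withdrawn libraries, by a wide margin for some. Comp, a cartilage and tendon matrix protein, was at 4.6, 92.9 and 10.4 CPM in S10, S11 and S12, and Col8a2, of the network-forming collagen VIII, at 4.28, 166 and 21.9 CPM. Without S11 all 11 still passed, with smaller values for Comp (4.34 in place of 6.61 on the log2 scale), Col8a2 (5.98 in place of 8.29) and Cilp (5.31 in place of 8.31). Fold changes of Egfl6, Cilp, Rspo2, Cxcl13 and Ldb2 rest on 4 to 8 counts in all before withdrawal. In 7 of the 11 genes all 3 withdrawn libraries were above the 6 DMSO libraries, against 14.3% of all genes tested. In 9 the cells kept on KU60019 had also moved above their 15 d levels, a share that was not counted over all genes. The 11 genes were taken for low levels before withdrawal and high levels after it, so both counts are a description with no test.

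**Figure D3:**
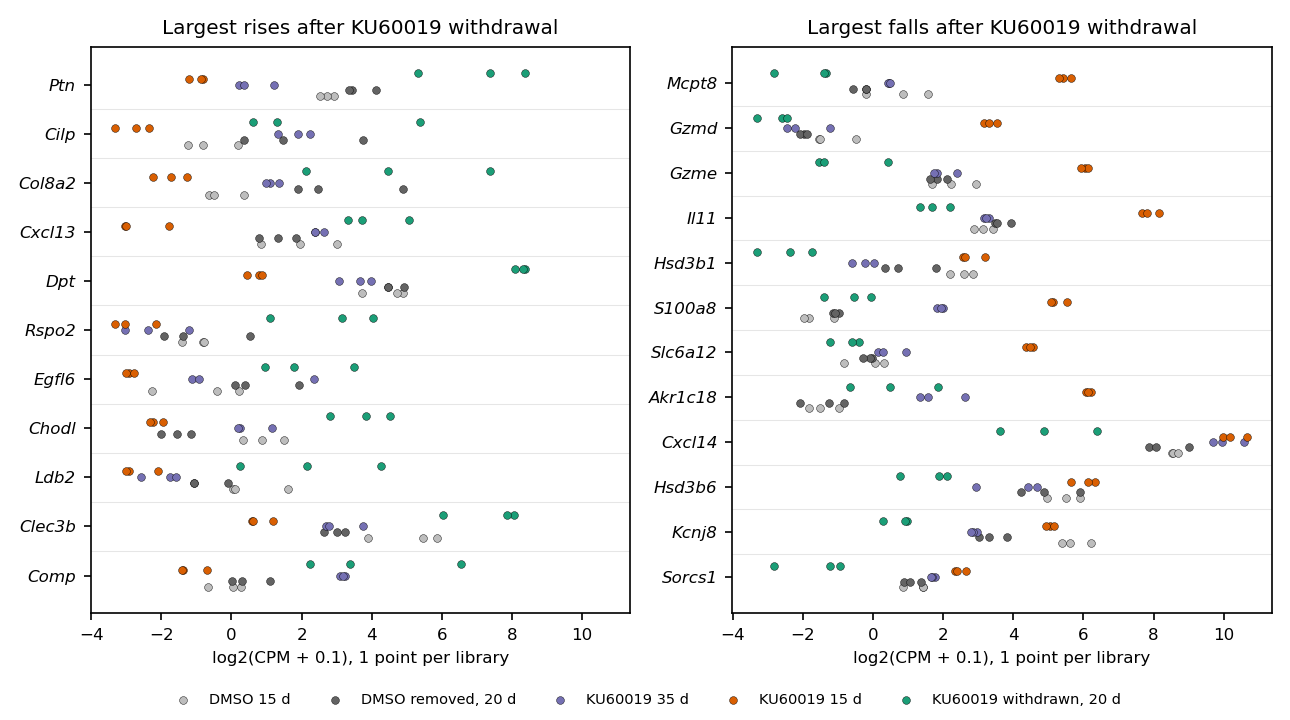
log2(CPM + 0.1) of 11 of the largest rises and the 12 largest falls, 1 point per library, coloured by group. Withdrawn libraries lie to the right of those at KU60019 15 d in the left panel and to the left in the right panel, as the choice of genes requires; for Il11 they also lie to the left of every DMSO library, and for Dpt to the right.

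The 12 largest falls were of Mcpt8, Gzmd, Gzme, Il11, Hsd3b1, S100a8, Slc6a12, Akr1c18, Cxcl14, Hsd3b6, Kcnj8 and Sorcs1. Il11 encodes a cytokine of the IL-6 family that TGF-beta raises in fibroblasts. It fell from 204, 287 and 226 CPM to 4.44, 2.42 and 3.13 CPM (log2 fold change -6.16 ± 0.38, adjusted p = 6.15e-10). The withdrawn libraries were below every DMSO library (7.2 to 15.3 CPM), and cells kept on KU60019 had come down to 8.84 to 9.84 CPM by 35 d without any withdrawal. Akr1c18, a progesterone-inactivating enzyme, went from 74.0, 67.5 and 69.8 to 3.49, 0.534 and 1.31 CPM, with 2.45 to 6.05 CPM at 35 d of KU60019. It was the only one of the 12 whose withdrawn libraries all stayed above the DMSO libraries (0.134 to 0.467 CPM). The chemokine gene Cxcl14 differed from Il11 in the cells kept on KU60019: it was at 1010, 1640 and 1160 CPM before withdrawal, 83.7, 12.3 and 29.0 CPM after it, and 834 to 1540 CPM in cells kept on KU60019. For Cxcl14 the difference from the 35 d cells was -4.75 (adjusted p = 2.77e-06).

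In 9 of the 12 falling genes all 3 withdrawn libraries were below the 6 DMSO libraries, against 15.6% of all genes tested. In 11 the libraries kept on KU60019 also all lay below those at 15 d, a share that was not counted over all genes. The 12 genes were taken for high levels before withdrawal and low levels after it, so both counts are a description with no test. S100a8, a calprotectin subunit, fell from 46.5, 35.0 and 33.4 to 0.587, 0.862 and 0.280 CPM, overlapping the DMSO libraries (0.153 to 0.409 CPM), and stood at 3.45 to 3.90 CPM at 35 d of KU60019. Gzmd and Gzme encode granzymes, known from cytotoxic lymphocytes, and Mcpt8 a protease known from basophils. Of the 10 proliferin, granzyme and related culture genes tested, 8 fell and none rose (median -1.98). That count was 4 without S11 or without S6 and 5 without S10. After withdrawal Gzmd rested on 4 counts in all. The granzyme genes and the proliferin genes each have near-identical copies, so values of single members are uncertain.

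The matrix genes that passed all rose. Of 36 extracellular matrix genes 21 rose and none fell (median log2 fold change 0.88; 2 fell without S10 and 2 on TPM), and of 10 small leucine-rich proteoglycans, which bind collagen fibrils and growth factors, 8 rose and none fell (median 2.19). Col1a2, a chain of collagen I (chromosome 6, 4504814 to 4541544, plus strand), rose from 1830, 1560 and 1650 to 8030, 8330 and 6610 CPM (2.19 ± 0.17, adjusted p = 6.42e-09). The withdrawn level lay within the DMSO range of 5850 to 14700 CPM, and cells kept on KU60019 held 2780 to 3040 CPM. The collagen VI genes Col6a1 (80.4, 52.3 and 54.5 to 429, 719 and 464 CPM) and Col6a2 (3.17 ± 0.28) rose as well, as did Col1a1 (1.61 ± 0.25). The difference from DMSO removal passed for both collagen VI genes and Col1a2 and not for Col1a1 (0.47, adjusted p = 0.32).

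Among the proteoglycans, Ogn, which encodes osteoglycin, rose from 54.1, 25.7 and 37.5 to 717, 768 and 559 CPM (4.12 ± 0.32). Cells kept on KU60019 to 35 d overlapped that level (568 to 836 CPM, difference 0.01, adjusted p = 0.99). Fmod, which encodes fibromodulin, rose from 44.2, 32.1 and 22.9 to 384, 588 and 431 CPM but reached only 84.0 to 135 CPM at 35 d of KU60019. Podn rose from 85.1, 62.6 and 60.6 to 529, 591 and 492 CPM. Omd, of osteomodulin, rose from 0.157, 0.201 and 0.0760 to 2.32, 17.9 and 5.88 CPM.

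Of the 18 fibroblast identity genes 11 rose and none fell. Dcn, which encodes decorin and is named after its value was seen, did not pass (-0.99, adjusted p = 0.0617). It passed as a fall with the replicate block (-1.06, adjusted p = 0.0237), DESeq2 (adjusted p = 0.0393), library size alone (0.0354), limma on TPM (0.0179) and without S10, and the fibroblast identity genes and the proteoglycans, which both hold it, then each had 1 fall. Extracellular matrix and fibroblast identity genes share several collagens, so their counts overlap. Over the same 20 d, DMSO removal raised 12 of the 36 matrix genes and lowered 2, and the test of the difference passed upward for 10 and downward for 7.

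Proteases and their inhibitors split. Of 25 tested 8 rose and 8 fell. Those that rose included Mmp2, a gelatinase (176, 165 and 195 to 375, 1130 and 656 CPM), Mmp23, and the aggrecanase-family genes Adamts1 (72.1, 51.6 and 57.9 to 336, 385 and 232 CPM) and Adamts9 (2 ± 0.20). Adamts9 went from 18.5, 14.9 and 16 to 51.6, 88.8 and 57.0 CPM, and cells kept on KU60019 held 13.4 to 16.1 CPM.

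Of 42 genes of the secretory phenotype of senescent cells 13 fell and 9 rose (median -0.49), where 19% of all genes tested fell and 21.3% rose. Without S10, 19 of the 42 fell and 9 rose (median -0.84), and with a replicate block 16 fell and 11 rose. The falls with the lowest p were those of Il11 and of Tgfb1, the main TGF-beta ligand (chromosome 7, 25687002 to 25705077, plus strand), which went from 104, 114 and 108 CPM to 30.0, 17.5 and 23.3 CPM (-2.20 ± 0.14, adjusted p = 6.15e-10). DMSO libraries were at 28.2 to 32.1 CPM and cells kept on KU60019 at 44.4 to 46.0 CPM, between the levels before and after withdrawal. Rises included binding proteins of insulin-like growth factors: Igfbp6 went from 95.9, 70.8 and 70.3 to 444, 396 and 504 CPM and Igfbp3 from 40.0, 27.9 and 23.7 to 97.0, 578 and 114 CPM. Igfbp3 changed by 3.11 on the log2 scale with S11 and by 1.79 without it.

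Promoter sequences of the secretory phenotype genes were read from RefSeq (GRCm38.p6) as windows of 300 bases around the transcription start. Promoters were found for 31 of the 42 secretory phenotype genes, and 9 of them (29.0%) held the AP-1 motif TGACTCA on either strand, against 5.95% of 27025 genes with a promoter. Of those 9 genes 6 fell and 1 rose, and of the 22 without the motif 5 fell and 8 rose. The 3 with the lowest fold change, a choice made after the values were seen, are shown with the match in capitals:
Il11 (chr7:4778092-4778391, minus strand): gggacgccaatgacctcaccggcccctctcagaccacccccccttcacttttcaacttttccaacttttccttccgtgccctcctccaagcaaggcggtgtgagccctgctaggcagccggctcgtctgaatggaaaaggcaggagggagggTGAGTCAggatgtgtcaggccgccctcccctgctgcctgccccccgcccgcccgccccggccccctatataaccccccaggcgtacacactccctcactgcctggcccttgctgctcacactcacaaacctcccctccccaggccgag
Mmp12 (chr9:7347124-7347423, plus strand): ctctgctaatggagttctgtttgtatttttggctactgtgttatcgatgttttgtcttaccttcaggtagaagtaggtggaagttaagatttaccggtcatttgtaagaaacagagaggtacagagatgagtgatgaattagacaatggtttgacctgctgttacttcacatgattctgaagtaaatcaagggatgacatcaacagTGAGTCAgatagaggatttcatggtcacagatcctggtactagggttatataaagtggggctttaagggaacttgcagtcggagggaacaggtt
Mmp10 (chr9:7502092-7502391, plus strand): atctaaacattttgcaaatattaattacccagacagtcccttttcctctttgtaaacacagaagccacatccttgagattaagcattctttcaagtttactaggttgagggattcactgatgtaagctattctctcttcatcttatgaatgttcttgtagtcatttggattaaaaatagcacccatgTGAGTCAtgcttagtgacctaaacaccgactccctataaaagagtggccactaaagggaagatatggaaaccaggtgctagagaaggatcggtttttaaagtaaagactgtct
Mmp10 and Mmp12, which encode stromelysin-2 and macrophage elastase, fell by 3.24 and 3.42 on the log2 scale. Mmp12 was low throughout, at 0.909, 0.670 and 0.963 CPM before withdrawal and 0.196, 0 and 0 CPM after it. A match describes the letters in the window and is not evidence of a bound factor.

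The interferon response genes that passed mostly fell. Of 50 tested 21 fell and 1 rose (median -0.53). Leaving out S4 reduced the falls to 13, and leaving out S10 gave 4 rises. DMSO removal raised 1 of the 50 and lowered 1 (median -0.23). The difference between the responses passed downward for 7 of the 50 and upward for 2, where 11.4% and 14% of all genes passed. Irgm1, an interferon-inducible GTPase, went from 269, 221 and 213 CPM to 77.3, 49.9 and 72.7 CPM (-1.81 ± 0.30, adjusted p = 8.89e-05). Parp12, Dtx3l and Parp9, which encode ADP-ribosylation proteins and a partner ubiquitin ligase, fell by 0.76, 1.33 and 1.12 on the log2 scale. Parp9 moved from 74.0, 63.3 and 64.0 to 27.1, 26.8 and 38.6 CPM and so came into the DMSO range of 22.5 to 38.1 CPM but for S12. In the comparison with cells kept on KU60019, 13 of the 50 genes were higher in withdrawn cells and 2 lower (median 0.42, and 18 and 2 with a replicate block). For these 13 the level after 35 d of inhibitor was the lower one. Over all 18684 genes tested, 3755 were higher in that comparison and 3378 lower. For Irgm1 the withdrawn and the continued level (51.7 to 78.7 CPM) overlapped (difference 0.06, adjusted p = 0.89).

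Of 38 interferon response genes with a RefSeq promoter window, 20 (52.6%) held GAAANNGAAA on either strand, the repeat at the core of interferon-stimulated response elements, against 3.99% of all 27025 genes. Falls passed for 10 of the 20 with the motif and for 7 of the 18 without it. The 3 with the lowest fold change among the 20, again taken by value, are shown with all matches in capitals; in Irgm1 a pair of matches overlaps:
Oas3 (chr5:120777610-120777909, minus strand): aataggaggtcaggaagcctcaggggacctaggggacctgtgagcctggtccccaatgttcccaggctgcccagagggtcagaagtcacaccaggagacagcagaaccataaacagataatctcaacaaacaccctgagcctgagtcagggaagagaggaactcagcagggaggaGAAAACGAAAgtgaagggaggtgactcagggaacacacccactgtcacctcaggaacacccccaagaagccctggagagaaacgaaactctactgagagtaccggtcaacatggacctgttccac
Cxcl10 (chr5:92348840-92349139, minus strand): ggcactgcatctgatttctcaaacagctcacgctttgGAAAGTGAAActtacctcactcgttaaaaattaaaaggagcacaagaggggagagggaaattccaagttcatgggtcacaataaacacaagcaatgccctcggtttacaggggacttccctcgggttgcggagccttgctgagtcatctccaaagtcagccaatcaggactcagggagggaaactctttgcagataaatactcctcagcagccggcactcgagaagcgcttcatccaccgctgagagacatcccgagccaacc
Irgm1 (chr11:48871371-48871670, minus strand): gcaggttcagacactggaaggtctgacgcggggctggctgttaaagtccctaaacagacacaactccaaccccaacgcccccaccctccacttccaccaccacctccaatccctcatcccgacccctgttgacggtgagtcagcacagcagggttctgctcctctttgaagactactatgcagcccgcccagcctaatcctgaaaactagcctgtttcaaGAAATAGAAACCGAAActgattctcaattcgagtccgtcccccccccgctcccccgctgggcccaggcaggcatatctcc
Oas3, of the 2'-5' oligoadenylate synthetases, fell by 2.50, and Cxcl10, a chemokine gene, by 2.27.

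Contractile and immediate early genes moved differently after KU60019 withdrawal than after DMSO removal. Of 17 smooth muscle contractile genes 6 fell and 1 rose after withdrawal (10 and 1 on TPM), while 12 rose and none fell after DMSO removal, and the difference itself passed downward for 13 of 17 (median -1.39). Tagln, which encodes the actin-binding protein SM22, went from 3300, 3910 and 3680 to 1990, 595 and 1200 CPM (-1.53 ± 0.30; difference -2.61, adjusted p = 0.00015). Actn1 went from 862, 848 and 915 to 473, 398 and 336 CPM and Cald1 from 1480, 1510 and 1550 to 941, 796 and 677 CPM. Against cells kept on KU60019, 13 of the 17 were higher in withdrawn cells and 1 lower (median 1.38), while Tagln, Actn1 and Cald1 did not pass.

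**Figure D4:**
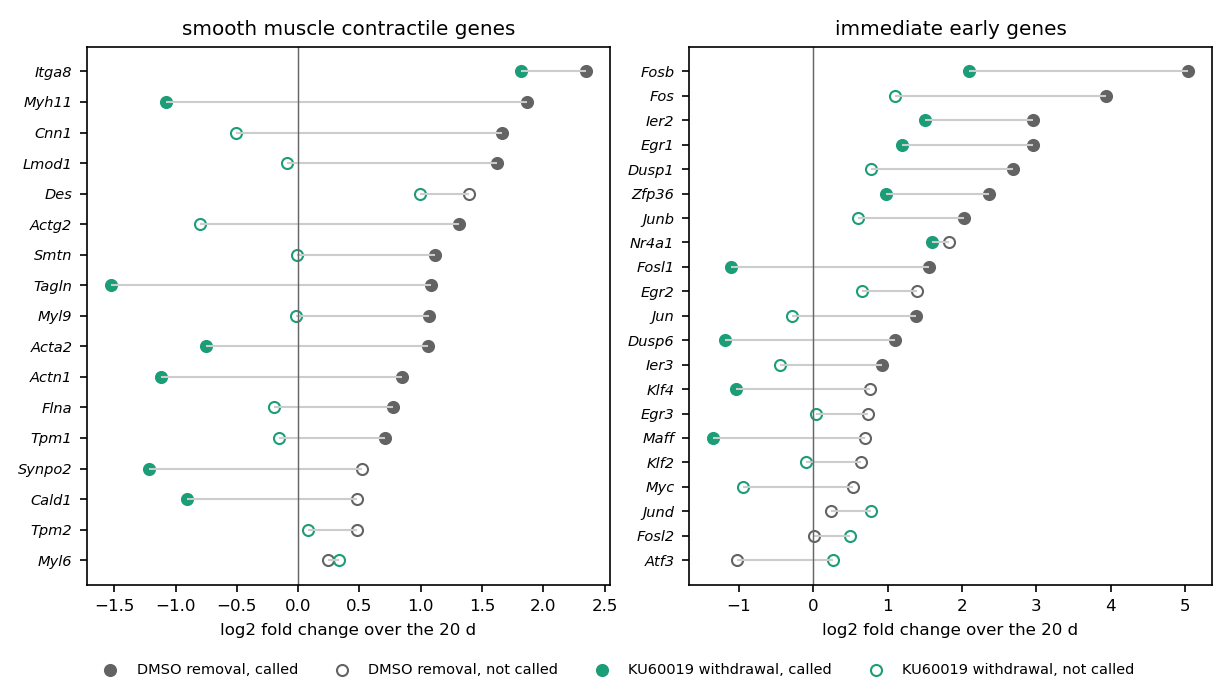
log2 fold changes over the 20 d after DMSO removal (grey) and KU60019 withdrawal (green) of 17 contractile and 21 immediate early genes; filled points passed the test and a line joins the 2 values of a gene. DMSO removal raised 12 contractile and 11 immediate early genes and lowered none, while after KU60019 withdrawal 1 and 5 rose and 6 and 4 fell.

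Over all genes tested, 21.3% rose and 19% fell after withdrawal. Of 21 immediate early genes, which growth factors and stress switch on within minutes, 5 rose and 4 fell after withdrawal (2 and 6 with library size alone or on TPM). Leaving out a library also changed these counts, to 2 and 3 without S5, 1 and 4 without S6 and 2 and 2 without S11. They stand against 11 rises and no fall after DMSO removal. The difference passed downward for 12 and upward for none. Ier2 rose in both arms, from 166, 164 and 121 to 334, 430 and 511 CPM after KU60019, and by 1.46 less than after DMSO removal. Dusp6, a phosphatase of ERK, fell from 49.9, 49.7 and 45.9 to 22.9, 20.7 and 20.3 CPM.

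Of 26 targets of SRF, YAP and TGF-beta 10 fell and 6 rose (3 rose with library size alone and 2 on TPM), and the difference from DMSO removal passed downward for 14 and upward for 1. That one was Tgfbi, a TGF-beta-induced matrix protein, at 1.91, 4.87 and 5.48 CPM before withdrawal and 9.69, 303 and 39.2 CPM after it, so that S11 was far above the others (log2 fold change 4.83, and 2.56 without S11).

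Of 28 mitosis genes 8 fell and none rose, where 19% of all genes tested fell and 21.3% rose. Their median was -0.39, which equals the median on DMSO removal. Only 2 of the 28 fell without S11, and 4 without S5 or without S6. Aurka, a spindle kinase, went from 10.1, 15.0 and 13.1 to 7.34, 7.18 and 7.84 CPM (-0.77 ± 0.18). Of 32 DNA replication genes 10 fell and 2 rose (6 fell without S11), with Pcna, the polymerase clamp, at 38.4, 42.9 and 44.6 CPM before and 31.4, 16.4 and 22.7 CPM after withdrawal. The difference from DMSO removal passed for 1 mitosis gene, Mki67, and for 4 replication genes, all upward. Replication-dependent histone genes fell in 6 of 11 (median -1.26).

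Where 19% of all genes fell and 21.3% rose, 8 of 32 p53 targets fell and 4 rose (median -0.20). Falls came to 5 without S5 or without S6, 13 with library size alone and 15 on TPM. Gtse1, which restrains p53 in G2, fell from 24.3, 22.8 and 24.1 to 8.71, 9.97 and 14.2 CPM, and Tigar, a fructose bisphosphatase, by 0.70 (± 0.11). Sesn1, a sestrin, rose from 12.8, 11.5 and 11.5 to 19.2, 30.0 and 25.7 CPM (1.06 ± 0.16). The difference from DMSO removal, which raised 6 and lowered none, passed downward for 11 and upward for 2. Trp53 itself fell from 71.0, 61.3 and 60.6 to 38.4, 19.9 and 39.1 CPM (-0.99 ± 0.25). Of 27 DNA damage response and repair genes 7 fell and 1 rose, while 2 fell without S11 and 4 without S5. Rpa1, a subunit of the single-strand binding protein RPA, fell from 84.5, 92.4 and 93.4 to 55.5, 51.3 and 54.8 CPM.

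Of 22 glycolysis and hypoxia genes 11 fell and none rose, led by hexokinase 2 (Hk2, 163, 171 and 167 to 73.2, 24.7 and 45.8 CPM), and the difference from DMSO removal passed downward for 10. Of 29 cholesterol and fatty acid synthesis genes 13 fell and 3 rose, with the desaturase gene Scd2 at 835, 750 and 806 CPM before and 280, 213 and 297 CPM after. Without S11 the falls came to 8. DMSO removal lowered 7 of the 29 and raised none (median -0.36, against -0.31 after KU60019 withdrawal). The difference between the responses passed upward for 4 and downward for 3 (median -0.04).

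Antioxidant genes were mixed, 7 rises and 8 falls among 23, with 5 falls without S4 or without S11 and 4 without S5. Hmox1, which encodes heme oxygenase 1, fell from 1140, 1150 and 1090 to 409, 260 and 310 CPM (-1.79 ± 0.21), while cells kept on KU60019 stayed at 810 to 932 CPM. Gstm1, a glutathione transferase, rose from 104, 83.9 and 73.8 to 181, 341 and 209 CPM.

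Among 25 genes of endoplasmic reticulum stress and ATF4, 8 rose and 5 fell, where 21.3% of all genes tested rose and 19% fell. With library size alone it was 5 and 6, on TPM 4 and 8, and without S10 5 and 8, while 5 rose without S5. The 4 members with the lowest p all rose and encode chaperones or disulfide-handling proteins of the endoplasmic reticulum. Pdia6 (chromosome 12, 17266545 to 17284770, plus strand) went from 306, 270 and 282 to 807, 610 and 829 CPM (1.39 ± 0.14, adjusted p = 3.32e-07). Pdia3 went from 1010, 948 and 945 to 2130, 2260 and 2110 CPM and Hsp90b1 from 733 ± 21.5 to 1550 ± 169 CPM (SD, n = 3). For Pdia6, Pdia3, Hsp90b1 and Creld2 all withdrawn libraries were above all DMSO libraries, and cells kept on KU60019 had levels like those at 15 d (Pdia6 269 to 316 CPM). The 5 that fell, Psat1, Mthfd2, Shmt2, Asns and Phgdh, outside the naming rule and picked after their values were seen, are enzymes of serine, one-carbon and asparagine synthesis, with changes from -1.44 (Psat1) to -0.73 (Phgdh). Asns did not pass without S11 (adjusted p = 0.0539).

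Of 30 lysosome and autophagy genes 8 rose and 10 fell; 5 rose without S5 or without S6, and with library size alone 5 rose and 17 fell. Sqstm1, which encodes the autophagy receptor p62, fell from 1030, 1180 and 1140 to 472, 393 and 502 CPM, and Tfeb, a transcription factor for lysosomal genes, rose by 1.69 (± 0.28). Of 13 mitochondrially encoded RNAs 5 fell and none rose (3 fell without S11, 10 with library size alone), and the share of counts from the mitochondrial genome was 2.58% to 2.86% before withdrawal, 1.23% to 1.57% after it and 5.08% to 6.61% in cells kept on KU60019. Against those cells 12 of the 13 were lower. Where 21.3% of all genes rose and 19% fell, 6 of 32 nuclear-encoded respiratory chain genes rose and 2 fell. Without S11 it was 1 and 2 and on TPM 3 and 10, while 3 rose without S6 and 4 fell without S10.

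Developmental and imprinted genes were among the rises. Of 18 imprinted growth genes 10 rose and 3 fell. Plagl1, a zinc finger factor of the imprinted network, rose from 2.66, 2.88 and 2.15 to 8.94, 30.7 and 24 CPM (3.04 ± 0.31), and the long noncoding RNA Meg3 from 84.3, 81.6 and 57.9 to 432, 338 and 530 CPM (2.54 ± 0.22). Meg3 rose as well on DMSO removal (difference 0.36, adjusted p = 0.37), whereas Plagl1 fell there by 2 (difference 5.04). Of 28 ligands and modulators of WNT and BMP signalling 10 rose and 5 fell (6 rose on TPM): Rspo1, a WNT agonist, rose from 6.55, 2.48 and 3.40 to 30.0, 136 and 37.0 CPM, Bmp3 from 7.14, 6.26 and 5.37 to 166, 90.2 and 114 CPM, and Frzb, a WNT antagonist, fell from 116, 87.0 and 76.9 to 19.5, 11.3 and 11.8 CPM.

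Of 26 transcription factors of lung mesenchyme 10 rose and 6 fell, where 21.3% of all genes tested rose and 19% fell. Rises and falls came to 6 and 7 on TPM, 7 and 6 with library size alone and 7 and 4 without S11, and 3 fell without S6. Prrx2, a paired-type homeobox factor, rose from 17, 16.8 and 15.2 to 63.2, 204 and 132 CPM and Twist1, a mesenchymal basic helix-loop-helix factor, from 5.61, 5.83 and 8.04 to 34.9, 96.0 and 44.3 CPM. Both were above every DMSO library and every library kept on KU60019. Of 15 complement genes 8 rose (5 on TPM) and 1 fell, the latter being the inhibitor Cd55 (80.5, 87.8 and 78.9 to 5.94, 13.1 and 9.66 CPM). C1s1 and C1ra, which encode the proteases of C1, rose by 1.96 and 2.53, and Clu by 3.58. Of 8 epidermal-type genes 6 fell and 1, Wfdc21, rose.

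**Figure D5:**
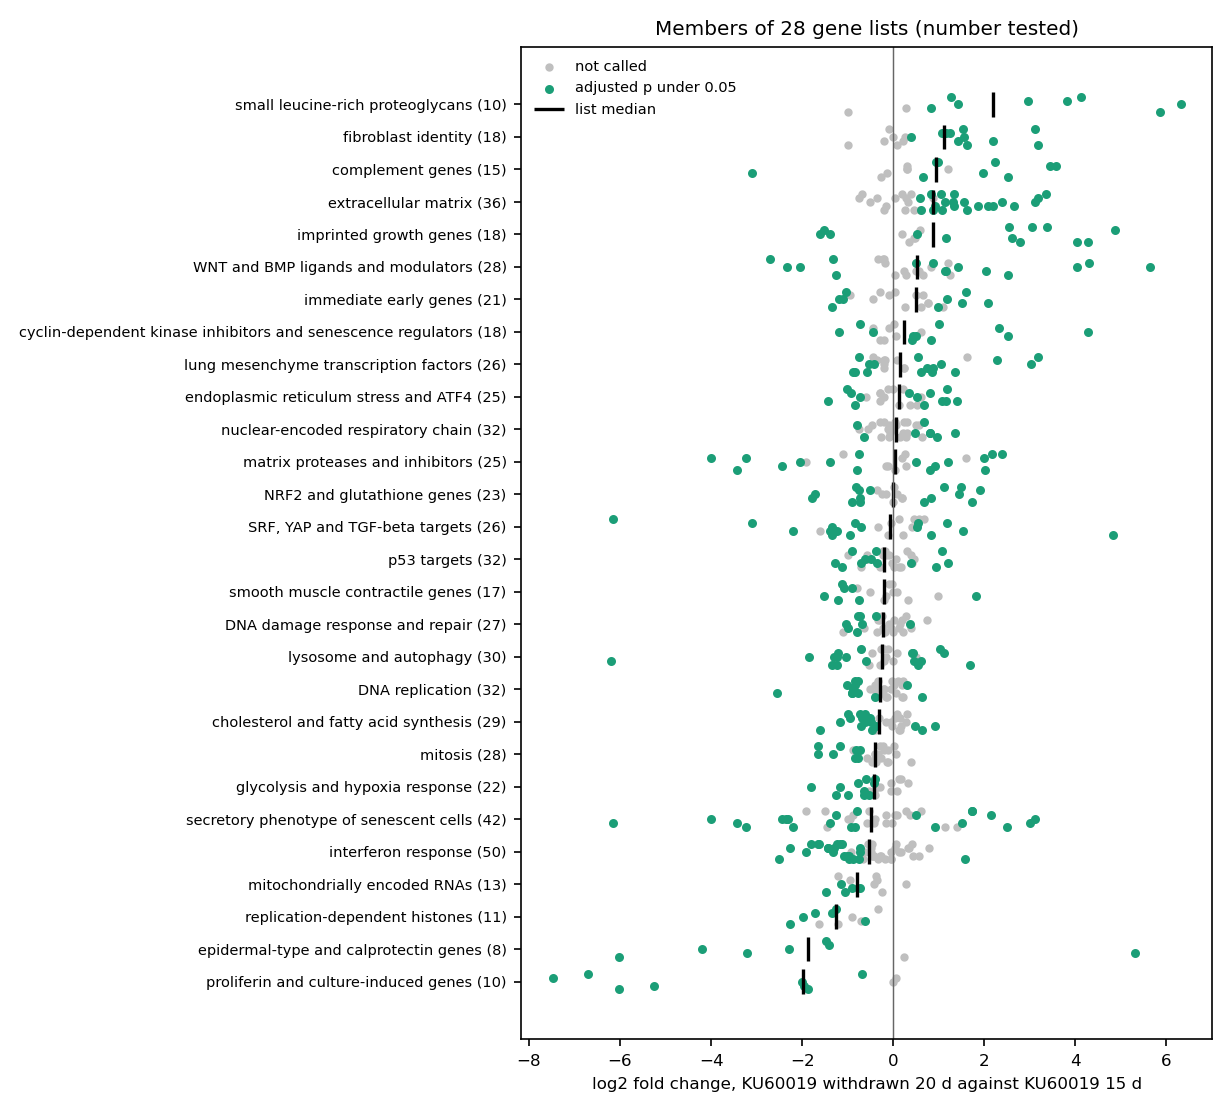
log2 fold changes of the tested members of 28 gene lists after KU60019 withdrawal; green points passed the test, grey ones did not, and black bars are list medians. Medians run from -1.98 for proliferin and related culture genes to 2.19 for small leucine-rich proteoglycans, against 0.02 for all genes.

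Markers of other cell types were summed in each library. The summed level of 14 macrophage and leukocyte markers was 43.5 to 65.3 CPM before and 28.2 to 54.2 CPM after withdrawal, with 1 of 11 tested higher and 1 lower (2 without S10). For 14 endothelial markers the sums were 138 to 195 and 137 to 290 CPM, with 1 higher (Flt1, 10.2, 7.51 and 9.28 to 25.7, 38.2 and 19.4 CPM) and 1 lower (Cdh5, from 2.04, 2.01 and 1.29 to 0.620, 0 and 0.373 CPM; 3 were lower without S10). DMSO removal lowered 11 of the 14 endothelial and 7 of the 11 macrophage markers, so the difference passed upward for 9 and 3. Of the epithelial markers 1 of 6 was higher and 3 lower (1 without S11), and of the mesothelial markers 1 of 7 was higher (0 without S6). Pericyte markers summed to 179 to 187 CPM before and 115 to 416 CPM after, with 2 of 8 higher (0 without S11, 1 without S4, S5 or S6) and 3 lower, among the latter Kcnj8 and Abcc9, the subunits of 1 potassium channel. Schwann cell markers summed to 22.8 to 79.2 and 18.8 to 80.2 CPM, with 1 of 9 higher and 1 lower. Of these, 5 were lower with a replicate block and 3 without S12, none was lower without S6, S10 or S11, and none higher without S5, S6, S11 or S12. Lipofibroblast markers summed to 462 to 511 and 586 to 1180 CPM, with Lpl higher (2 genes without S4 or without S10) and Plin2 lower. Chondrocyte and bone markers went from 919 to 1300 CPM to 238 to 686 CPM, with 5 of 9 higher (3 without S11) and 2 lower, Alpl and Spp1, the second of which did not pass without S4, S11 or S12. Ibsp was at 0 in all 6 libraries. The part of any of these cells in the results above was not tested.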

How the data were processed

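RNA-seq read counts per gene for 27 libraries were used as the authors deposited them; the submitters' processing notes name featureCounts and mm10, and aligner, annotation and strand setting were not given in the sources used here. TPM values, also deposited by the authors, served only an alternative. Groups were read from library titles. The table held 48440 genes; 40606 identifiers (83.8%) matched GENCODE M21, which gave coordinates (GRCm38). Genes were kept by filterByExpr (minimum count 10), scaled by TMM factors and fitted with edgeR 4.0.16 (quasi-likelihood, robust) in R 4.3.3, with 1 mean for each of 9 groups, which share 1 estimate of the spread. Adjusted p-values are Benjamini-Hochberg values over all 18684 genes tested, and each SE was approximated from the fold change and its F statistic (|log2 fold change| over √F). CPM values use the library size and TMM factor. TMM factors were 0.879 to 0.933 after withdrawal and 1.02 to 1.08 before it. Counting error is covered by the fit, not by separate intervals.

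Comparisons were withdrawal, DMSO removal, their difference, and withdrawal against 35 d of KU60019; the last was added after the data were seen. In the last, same-numbered libraries deviated together (correlations 0.357, 0.117 and 0.232), a pairing seen in the data and not stated in the labels. The comparison and the 36 gene lists were chosen with earlier results of these data known. Genes are named by rule: a panel of 7 (Atm, Cdkn1a, Cdkn2a, Mdm2, Mki67, Lmnb1, Il6), the 12 largest rises and falls (adjusted p under 0.05, at least 5 CPM, no overlap), the 6 highest and lowest differences from DMSO removal, the 4 members of each list with the lowest p, and cell type markers. Others are said to have been picked by value. 1 gene that the rule names is not reported here.

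Alternatives were DESeq2 1.42.0, limma 3.58.1 on log2(TPM + 1), other scalings, filters and gene sets, a replicate block, and each library left out. On simulated data with 200 changed genes (18180 genes), edgeR recovered 12.5% of 1.5-fold, 60% of 2-fold and 100% of 4-fold changes in the withdrawal design, with 5 false calls. DESeq2 made 17 false calls on the same simulated data. The simulation gave all groups the same spread for a gene, while the real withdrawn libraries differed more than those before withdrawal. Its false calls therefore do not measure the error of the real comparison. No antisense or overlapping gene can be told apart without a stated strand.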

Additional observations from a re-analysis of the deposited data

Results flagged for a closer look

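A direct test found that the change over the 20 d after removal differed between cells that had KU60019 and cells that had DMSO for 4751 genes. In the fixed panel it passed for Cdkn1a (log2 difference -1.10), Cdkn2a (1.79), Mdm2 (-0.66) and Mki67 (1.01).

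The highest differences were those of Chodl (9.79), Clec3b (9.14), Cxcl13 (8.83), Ldb2 (8.43), Wfdc21 (8.42) and Aox3 (8.04). The lowest were those of S100a8 (-6.78), Il11 (-6.66), Mcpt8 (-6.34), Gzmd (-6.19), Gzme (-6.18) and Ivl (-5.76). These 12 genes were taken for their size, and all lie far from the median of 0.03 over all genes.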

How the results depend on the processing

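The direction of withdrawal reversed for none of the 161 named genes tested under the alternatives that gave a value for them; some filters dropped a few of these genes. Of the 145 called, 127 kept the call under every alternative that gave a value and 18 lost it under at least 1. Most of the 161 were named for large changes or a low p, so these counts do not describe all genes called. Genes called after withdrawal ranged from 5237 (without S11) to 8367 (without S10) with 1 library left out. With only the compared groups fitted, 5358 of 16692 genes passed after withdrawal, 2761 higher and 2597 lower. On TPM 1659 genes were higher. The DMSO removal count of 1312 was 800 with only the compared groups fitted, 784 on TPM, and 754 to 1229 with 1 library left out. Genes with the more positive change after KU60019 than after DMSO (2624) numbered 1725 with no filter on low counts, 1125 on TPM, and 1709 to 3271 with 1 library left out. The comparison with 35 d of KU60019 (7133 genes) gave 4222 with only the compared groups fitted and 4362 to 8193 with 1 library left out. The cause of these shifts was not tested. Same-numbered libraries before and after withdrawal had deviations that correlated at 0.078, 0.129 and -0.013, so not every pair was over 0.1. Between KU60019 and DMSO at 15 d the values were 0.393, 0.219 and 0.38. Other pairs of groups were mixed: 0.242, -0.051 and 0.155 between DMSO before and after removal, and 0.14, -0.092 and -0.068 between withdrawn KU60019 and removed DMSO. With a replicate block 7393 genes passed (3890 higher, 3503 lower), and the difference from DMSO removal passed for 4618. The comparison with 35 d of KU60019, where same-numbered libraries correlated at 0.357, 0.117 and 0.232, gave 7039 with the block. The calls of the 7 genes given for that comparison did not change. Genes of a few counts, such as Gzmd or Cilp, have folds limited by depth.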
